A study of Mus musculus with 9 samples.

Results

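The 10 genes Arg1, Arg2, Slc7a1, Slc7a2, Gatm, Odc1, Srm, Smox, Azin1 and Ass1, which import, make or use arginine and polyamines, were taken by symbol from a table of 16200 genes. All 10 were found and all 10 passed the filter on low counts, among 12587 genes tested. The data are polyA RNA sequencing counts from wild-type mouse bone marrow-derived macrophages, cells grown from marrow for 6 days in medium with L929 fibroblast supernatant. Of 9 libraries, 3 came from untreated cells, 3 from cells treated for 12 h with 20 ng/ml of interleukin-4 (IL-4), and 3 from cells treated for 6 h with 100 ng/ml of interleukin-27 (IL-27). All 3 groups share the genotype and the culture medium. The study asks how IL-27 shifts metabolism in alternatively activated macrophages, the state classically induced by IL-4. Cytokine, dose and duration change together between the treated groups and cannot be told apart. Whether IL-4 was also added to the cells treated with IL-27 is unclear from the labels, and strain and age are not given there. The replicates are described as 3 experiments per group, without saying whether they used separate animals. If they did not, the p-values reflect a spread between libraries that may be technical.

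Arginine enters macrophages mainly through the cationic amino acid transporters encoded by Slc7a1 and Slc7a2. Arginase, encoded by Arg1 in the cytosol and Arg2 in mitochondria, splits it into urea and ornithine, while Gatm uses it for the creatine precursor guanidinoacetate and nitric oxide synthase for nitric oxide and citrulline. Ass1 starts the remaking of arginine from citrulline. Ornithine decarboxylase (Odc1) turns ornithine into putrescine, spermidine synthase (Srm) turns putrescine into spermidine, and spermine oxidase (Smox) converts spermine back to spermidine. Antizymes mark ornithine decarboxylase for degradation, and the antizyme inhibitor Azin1, a relative of ornithine decarboxylase without its activity, binds antizyme in its place. High arginase activity is a textbook mark of IL-4-treated mouse macrophages.

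The libraries held 34577188 to 37951827 counts, and 14001 to 14326 genes had at least 1 count in a library. Macrophage markers summed to 24800 to 30000 CPM (counts scaled to library size) in untreated libraries, 16400 to 18300 CPM with IL-4 and 24600 to 26800 CPM with IL-27, with Cd163 the 1 of 11 under 1 CPM throughout. Fibroblast markers together reached 680 to 815 CPM without cytokine, 540 to 688 CPM with IL-4 and 1050 to 1320 CPM with IL-27, mostly Col1a1 and Col1a2. Of these 8 markers, Lum and Thy1 stayed under 1 CPM and none was at 0 in all libraries. The mast cell and basophil, dendritic cell, T cell, B cell and erythroid lists each summed to at most 3.62 CPM and the neutrophil list to at most 8.95 CPM. Endothelial markers, mostly Kdr, summed to 5.81 to 6.58 CPM untreated, 2.69 to 3.68 CPM with IL-4 and 21.8 to 27.1 CPM with IL-27. Eosinophil markers, mostly Siglecf, ran from 41.9 to 45.7, from 46.5 to 52.9 and from 14.6 to 17 CPM in the same order, with Prg2 at most 0.112 CPM. Counts existed for 3 of 7 mast cell and basophil, 3 of 5 T cell, 8 of 9 neutrophil and 3 of 4 eosinophil markers. The sums of these lists cover only those genes. The part of other cells in the results on these genes was not tested. Untreated replicate 2 and IL-4 replicate 1 stood apart: a pair of same-group libraries that included either had a per-gene chi-square between 93.5 and 117, and the remaining same-group pairs between 5.45 and 8.92. Their deviations from the group means correlated at r = 0.900 over 9553 genes, which are not independent replicates.

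Promoters of 5 of the 10 genes could be matched in the RefSeq table for mouse build GRCm38.p6, and the 250 bases before each start were searched on both strands for 4 motifs. These were TTC and GAA separated by 4 bases (the spacing that STAT6 prefers), TTCNNNGAA (the spacing of most other STAT factors), CACGTG (the E-box that Myc can bind) and TGATGNAA (an ATF4-type element). Of 32851 promoters of the same length, 5.85%, 7.02%, 6.02% and 3.45% held them, and none of the 4 is contained in another. Slc7a1 and Ass1 were the genes with a match, and they are shown so that the matched letters can be read in place, with each match in capitals. The inner Slc7a1 start, chr5:148392816-148393065 on the minus strand, has TTCAAAGAA with its first base at position -146 relative to the start. Its outer start, chr5:148399905-148400154 on the minus strand, has no match. Ass1, chr2:31470020-31470269 on the plus strand, has CACGTG with its first base at position -36. Sequences run 5′ to 3′ on the strand of the gene.
Slc7a1 inner start: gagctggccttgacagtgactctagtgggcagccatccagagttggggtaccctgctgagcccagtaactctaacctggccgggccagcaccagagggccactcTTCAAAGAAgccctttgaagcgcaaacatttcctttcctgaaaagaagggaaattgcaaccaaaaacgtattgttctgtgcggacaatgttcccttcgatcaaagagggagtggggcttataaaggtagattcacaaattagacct
Slc7a1 outer start: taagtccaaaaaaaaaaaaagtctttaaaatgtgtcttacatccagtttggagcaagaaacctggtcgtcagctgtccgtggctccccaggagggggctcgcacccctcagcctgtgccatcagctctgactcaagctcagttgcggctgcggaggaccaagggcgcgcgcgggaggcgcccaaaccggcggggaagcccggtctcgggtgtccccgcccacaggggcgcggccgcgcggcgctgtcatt
Ass1: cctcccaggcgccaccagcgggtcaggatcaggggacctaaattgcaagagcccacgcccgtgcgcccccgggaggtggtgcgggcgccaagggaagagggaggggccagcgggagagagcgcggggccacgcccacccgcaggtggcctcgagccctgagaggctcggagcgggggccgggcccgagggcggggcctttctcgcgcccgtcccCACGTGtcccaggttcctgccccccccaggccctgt

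In the corresponding windows of Odc1, Gatm and Smox none of the 4 motifs matched, which says only that these letters are not in these windows. A match is a description of the sequence, and no binding was measured. Base composition differed between the windows: G and C made up 50% of bases before the inner Slc7a1 start, 62.4% before the outer one and 75.6% before Ass1, against a median of 52.4% over the table. The counts were made on build GRCm39, so these coordinates belong to the sequences alone.

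Under IL-4, Arg1, Slc7a2, Gatm, Slc7a1, Srm and Odc1 rose and Arg2 and Smox fell, while Ass1 and Azin1 did not pass the test. Under IL-27, Slc7a1, Ass1, Odc1, Azin1, Slc7a2 and Srm rose and Arg1 and Gatm fell, while Arg2 and Smox did not pass. Called here means a Benjamini-Hochberg adjusted p under 0.05 over all tested genes in edgeR's quasi-likelihood test, and the 2 cytokine comparisons share the untreated libraries. Against untreated cells, 6 genes were thus called higher and 2 lower with IL-4, where 12.9% of all tested genes were called higher and 12.0% lower. With IL-27 the counts were also 6 and 2, where the background was 14.0% higher and 15.1% lower. Between the treated groups 6 were higher with IL-27 and 3 lower, beside 18.8% and 21.0% of all tested genes. Median log2 fold changes of the 10 genes were 0.93 with IL-4, 0.98 with IL-27 and 0.71 between the treated groups, beside -0.00893, 0.00145 and 0.00728 over all tested genes. In the same order, the 2 groups compared did not overlap for 9, 8 and 9 of the 10 genes. Over all tested genes they did not overlap for 36%, 52.2% and 56.7%, so a lack of overlap is common here. In these bulk samples, fewer cells of a type and less RNA per cell cannot be told apart.

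**Figure D1:**
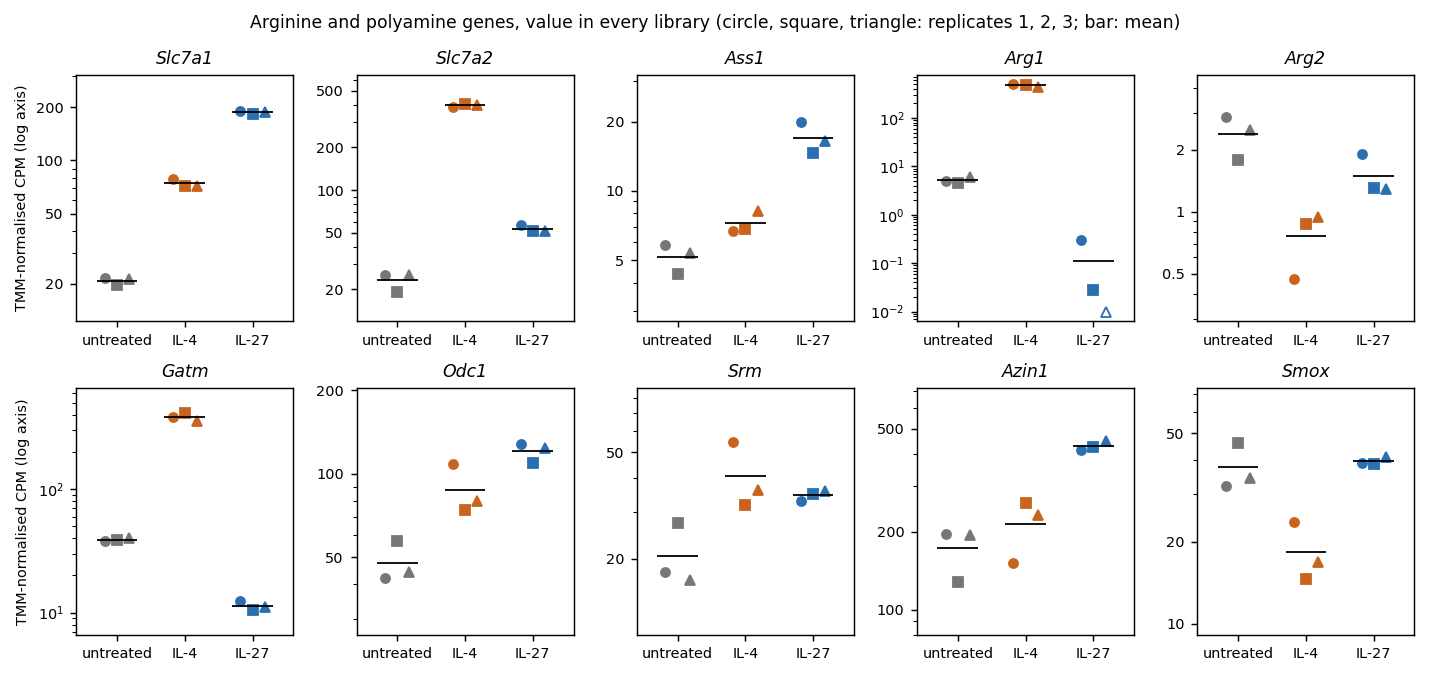
TMM-normalised CPM of each gene in each of the 9 libraries on log axes that differ between panels, with bars at group means and an open triangle at the bottom for a library with 0 counts. Arg1 and Gatm are highest with IL-4 and lowest with IL-27, whereas Slc7a1, Ass1 and Azin1 are highest with IL-27.

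Both transporter genes rose with both cytokines, but in opposite order. Slc7a1, encoding the broadly expressed transporter CAT-1, stood at 21.7, 19.6 and 21.2 CPM in the untreated libraries, 78.6, 71.5 and 72.0 CPM with IL-4 and 192, 183 and 188 CPM with IL-27. The 3 groups did not overlap and the spread within each was small. IL-4 raised Slc7a1 3.56-fold (log2 fold change 1.83 ± 0.08, standard error; edgeR adjusted p = 6.44e-07) and IL-27 9-fold (log2 3.17 ± 0.09, edgeR adjusted p = 5.52e-08). The IL-27 level exceeded the IL-4 level 2.53-fold (edgeR adjusted p = 1.2e-06).

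Slc7a2, encoding CAT-2, was instead highest with IL-4. Its values were 25.3, 19.0 and 25.2 CPM untreated, 383, 408 and 396 CPM with IL-4 and 56.8, 51.9 and 52.0 CPM with IL-27. The IL-4 libraries lay far above all others, and the IL-27 libraries above all untreated ones. IL-4 raised it 17.1-fold (log2 4.09 ± 0.13, edgeR adjusted p = 7.41e-08), and IL-27 2.31-fold (log2 1.21 ± 0.11, edgeR adjusted p = 4.44e-05). Between the treated groups IL-27 was 7.38-fold lower (edgeR adjusted p = 1.16e-07). On FPKM, a scale per transcript length on which genes can be compared, Slc7a2 stood above Slc7a1 with IL-4 (44.8 ± 3.93 against 10.3 ± 0.109, SD, n = 3). With IL-27 Slc7a1 stood above Slc7a2 (25.0 ± 0.781 against 5.80 ± 0.336).

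Ass1, argininosuccinate synthase, rose with IL-27. Its values were 5.84, 4.34 and 5.38 CPM without cytokine, 6.72, 6.87 and 8.22 CPM with IL-4 and 20.0, 14.7 and 16.4 CPM with IL-27. The groups did not overlap, although the step from untreated to IL-4 was small. IL-27 raised Ass1 3.29-fold over untreated (log2 1.71 ± 0.17, edgeR adjusted p = 6e-05) and 2.35-fold over IL-4 (log2 1.23 ± 0.17, edgeR adjusted p = 0.00025). The IL-4 difference from untreated, log2 0.49 ± 0.17, did not pass (edgeR adjusted p = 0.0631). It passed with DESeq2 (adjusted p = 0.0338) and without the pair of libraries that stood apart (edgeR adjusted p = 0.0345). Those were among 3 of 20 settings in which it passed, and the fit without the pair called 46.4% of all tested genes. IL-27 replicate 1, the highest for Ass1, also had the highest level of the fibroblast marker Dcn, 47.4 CPM against 27.4 and 27.2 CPM in the other IL-27 libraries. The part of fibroblast RNA in the Ass1 level was not tested. Asl, which completes the remaking of arginine after Ass1, stood at 50.2 ± 11, 43.4 ± 7.81 and 40.8 ± 1.69 CPM (untreated, IL-4, IL-27; SD, n = 3) and passed in no comparison.

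Arg1 moved furthest of the 10 genes, upward with IL-4 and downward with IL-27. It had 182, 151 and 221 counts in the untreated libraries, 16781, 19326 and 17394 counts with IL-4, and 11, 1 and 0 counts with IL-27. In TMM-normalised CPM these were 5.06, 4.55 and 6.17, then 492, 482 and 443, then 0.300, 0.0276 and 0. No IL-27 library reached the lowest untreated library, and no untreated library approached the IL-4 level. The IL-4 rise was 89.8-fold (log2 6.49 ± 0.31, edgeR adjusted p = 6.99e-07). The fall with IL-27 had a log2 fold change of -5.54 ± 0.46 (edgeR adjusted p = 1.8e-05). In summed counts, 554 untreated against 12 with IL-27, the untreated level was 48.8 times higher, with an exact 95% interval of 27.7 to 94.9 that covers counting error only. IL-27 replicate 1 held 11 of these 12 counts, and without it the log2 fold change was -8.26 (edgeR adjusted p = 9.59e-06). Between the treated groups the log2 fold change was -12.03 ± 0.44 (edgeR adjusted p = 6.51e-08), and -14.75 without that library. Summed counts of 53501 with IL-4 and 12 with IL-27 gave an IL-4 level 4490 times higher, with an exact 95% counting interval of 2570 to 8700.

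The untreated Arg1 level was 1.09% of the IL-4 level in unscaled CPM, close to the untreated shares of Chil3 (1.10%), Retnla (1.08%), Cdh1 (0.843%), Il31ra (0.878%) and Rnase2a (0.992%), which are IL-4-induced genes with other functions. Mgl2 and Flt1, also far higher with IL-4, had larger untreated shares of 2.04% and 2.20%. Slc7a2 and Gatm stood higher still in untreated cells, at 5.73% and 9.84% of their IL-4 level. In IL-27 libraries the same shares were 0.0223% for Arg1, 0.0450% for Chil3, 0.00861% for Retnla, 0.627% for Cdh1, 0.246% for Il31ra, and Rnase2a had 0 counts. Mgl2 and Flt1 stood at 2.59% and 1.62% there. A subtraction used the lowest untreated share among Cdh1, Il31ra and Rnase2a, 0.843%, as its rate. The lowest IL-27 share among them was 0%, so the IL-27 libraries were left unchanged. Subtracting 0.843% of the IL-4 level from every gene of the untreated libraries left 41, 4 and 79 Arg1 counts. The Arg1 share itself (1.09%) is above this rate, so the remainder depends on the choice of rate. The log2 fold changes became 8.64 for IL-4 and -3.39 for IL-27 against untreated. Whether the untreated Arg1 reads come from IL-4 material was not tested.

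Arg2, the mitochondrial arginase, fell with IL-4. It was low everywhere, at 2.89, 1.78 and 2.48 CPM untreated, 0.469, 0.874 and 0.942 CPM with IL-4 and 1.91, 1.30 and 1.29 CPM with IL-27. All IL-4 libraries lay below all others, while the IL-27 and untreated ranges overlapped. The IL-4 fall was 3.13-fold (log2 -1.64 ± 0.34, edgeR adjusted p = 0.00638). With IL-27 the difference from untreated was -0.67 ± 0.33 on the log2 scale and did not pass (edgeR adjusted p = 0.152). It passed without the libraries that stood apart (log2 -0.85, edgeR adjusted p = 0.0420), in a fit that called 49.5% of all tested genes. This difference passed in 2 of 20 settings. The IL-27 level was higher than the IL-4 level by 0.96 ± 0.34 (log2, edgeR adjusted p = 0.0482), a call lost without any 1 library except untreated replicate 2 (edgeR adjusted p between 0.0537 and 0.167).

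Set side by side per length, the arginase transcripts changed in make-up. Arg1 gave 62.7%, 71.1% and 70.4% of summed Arg1 and Arg2 FPKM in untreated libraries, 99.9%, 99.8% and 99.8% with IL-4, and 13.1%, 2.00% and 0% with IL-27. As deposited, Arg1 was the larger part in every untreated and IL-4 library and Arg2 in every IL-27 library. For the untreated libraries this order turned after the subtraction described above, which left 41, 4 and 79 Arg1 counts beside 104, 59 and 89 Arg2 counts, at transcript lengths of 1477 and 1417 bases. The count of 0 in IL-27 replicate 3 allows an Arg1 share of up to 5.77% (3 counts, counting error only). Summed arginase FPKM ran from 3.98 to 6.11 untreated, from 318 to 345 with IL-4 and from 0.895 to 1.53 with IL-27. Each of the 3 differences in share gave p = 0.10 in a two-sided exact permutation test, the smallest that 3 against 3 libraries allow, so this design cannot pass the threshold.

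Gatm, encoding the enzyme that joins arginine and glycine for creatine, followed the direction of Arg1. It stood at 38.1, 38.5 and 40.5 CPM untreated, 386, 414 and 357 CPM with IL-4 and 12.4, 10.6 and 11.1 CPM with IL-27. The groups were far apart relative to their spread. IL-4 raised Gatm 9.88-fold (log2 3.30 ± 0.10, edgeR adjusted p = 7.41e-08), and IL-27 lowered it 3.43-fold (log2 -1.78 ± 0.10, edgeR adjusted p = 1.76e-06). Between the treated groups the difference was 33.9-fold (edgeR adjusted p = 3.84e-09). After the same subtraction of 0.843% the untreated libraries still held 1255, 1157 and 1337 Gatm counts, against 456, 384 and 405 with IL-27.

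Of the other creatine genes, Gamt, which methylates guanidinoacetate to creatine, went the same way as Gatm and the creatine importer Slc6a8 went the opposite way. Gamt stood at 10.0 ± 1.73 CPM untreated, rose to 15.8 ± 0.241 with IL-4 (edgeR adjusted p = 0.0095) and fell to 6.22 ± 0.746 with IL-27 (edgeR adjusted p = 0.00747). Slc6a8 went from 271 ± 30.1 CPM down to 203 ± 25.1 with IL-4 (edgeR adjusted p = 0.0201) and up to 743 ± 20.9 with IL-27 (edgeR adjusted p = 1.2e-05). Ckb, brain-type creatine kinase, stood at 415 ± 136, 487 ± 172 and 306 ± 7.96 CPM in the same order and passed in no comparison.

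**Figure D2:**
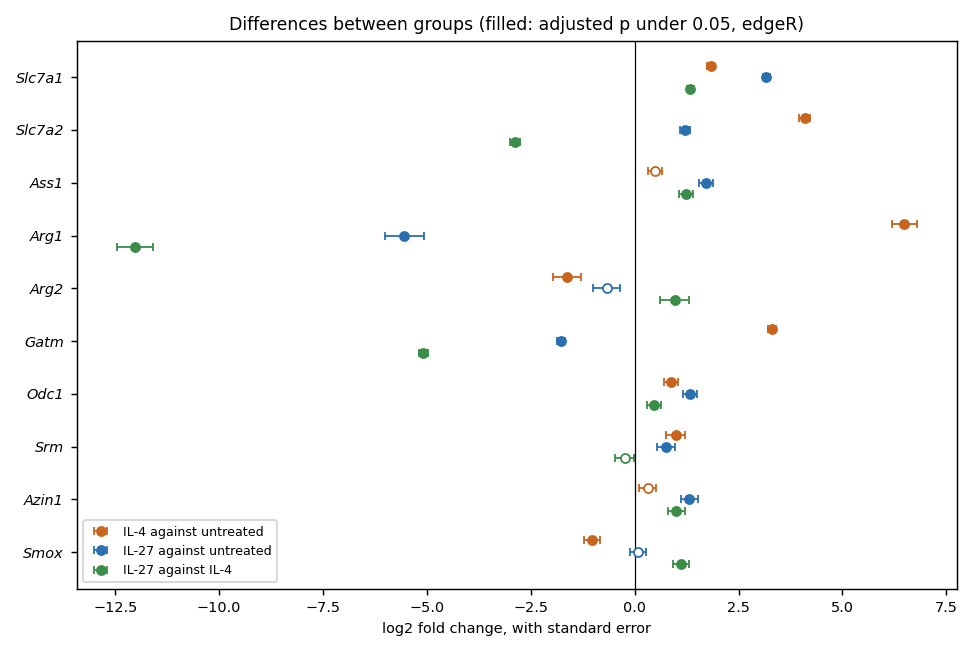
Log2 fold change of each gene in the 3 comparisons, with its standard error, filled where the edgeR adjusted p was under 0.05. Arg1 and Gatm lie to the right with IL-4 and to the left with IL-27, whereas Slc7a1, Slc7a2, Odc1 and Srm lie to the right with both.

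In polyamine synthesis, Odc1 rose with both cytokines. Ornithine decarboxylase is the rate-limiting enzyme of the pathway. Odc1 had 42.1, 57.4 and 44.1 CPM untreated, 108, 74.2 and 79.8 CPM with IL-4 and 128, 110 and 124 CPM with IL-27. The groups did not overlap, but IL-4 replicate 1 at 108 CPM came close to IL-27 replicate 2. The rises were 1.82-fold with IL-4 (log2 0.87 ± 0.16, edgeR adjusted p = 0.00361) and 2.52-fold with IL-27 (log2 1.33 ± 0.16, edgeR adjusted p = 0.000244). IL-27 was above IL-4 by 0.46 ± 0.16 (log2, edgeR adjusted p = 0.0439). That call was lost without a filter on low counts (edgeR adjusted p = 0.0503). Leaving out 1 library ended it too, except for untreated replicate 2 or IL-4 replicate 1, with edgeR adjusted p between 0.0501 and 0.135.

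Srm, spermidine synthase, also rose with both. It had 17.8, 27.2 and 16.6 CPM untreated, 54.4, 31.8 and 36.1 CPM with IL-4 and 32.9, 35.0 and 35.7 CPM with IL-27. Untreated replicate 2 and IL-4 replicate 1 were the highest of their groups, and the treated groups overlapped each other. IL-4 raised Srm 1.99-fold (log2 0.99 ± 0.23, edgeR adjusted p = 0.0101) and IL-27 1.68-fold (log2 0.75 ± 0.23, edgeR adjusted p = 0.0314). The IL-27 call was lost on leaving out untreated replicate 1, untreated replicate 3 or any IL-27 library (edgeR adjusted p from 0.0692 to 0.101). The treated groups differed by -0.24 ± 0.22 (log2), which did not pass (edgeR adjusted p = 0.425) and whose sign turned without IL-4 replicate 1 (log2 0.02).

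Azin1, the antizyme inhibitor, rose with IL-27. It stood at 196, 128 and 194 CPM untreated, 151, 259 and 232 CPM with IL-4 and 413, 426 and 449 CPM with IL-27. Every IL-27 library lay above all others, while the untreated and IL-4 ranges overlapped. IL-27 raised Azin1 2.49-fold over untreated (log2 1.31 ± 0.21, edgeR adjusted p = 0.00113) and 2.01-fold over IL-4 (log2 1.00 ± 0.21, edgeR adjusted p = 0.00356). The IL-4 difference from untreated was 0.31 ± 0.21 (log2, edgeR adjusted p = 0.314). It passed without IL-4 replicate 1 (log2 0.51, edgeR adjusted p = 0.0366) and without both libraries that stood apart (log2 0.34, edgeR adjusted p = 1.46e-05). Those were among 3 of 20 settings in which it passed.

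Smox, spermine oxidase, fell with IL-4. Its values were 32.2, 46.0 and 34.4 CPM untreated, 23.7, 14.6 and 16.9 CPM with IL-4 and 39.0, 38.6 and 41.1 CPM with IL-27. The IL-4 libraries lay below all others, and the IL-27 values fell inside the untreated range. The IL-4 fall was 2.04-fold (log2 -1.03 ± 0.19, edgeR adjusted p = 0.00304), and IL-27 was 2.15-fold above IL-4 (edgeR adjusted p = 0.00106). With IL-27 the difference from untreated was 0.08 ± 0.18 (log2, edgeR adjusted p = 0.787). Without the libraries that stood apart it was 0.24 and passed (edgeR adjusted p = 0.0142), in a fit that called 49.5% of all tested genes. It passed in 2 of 20 settings.

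**Figure D3:**
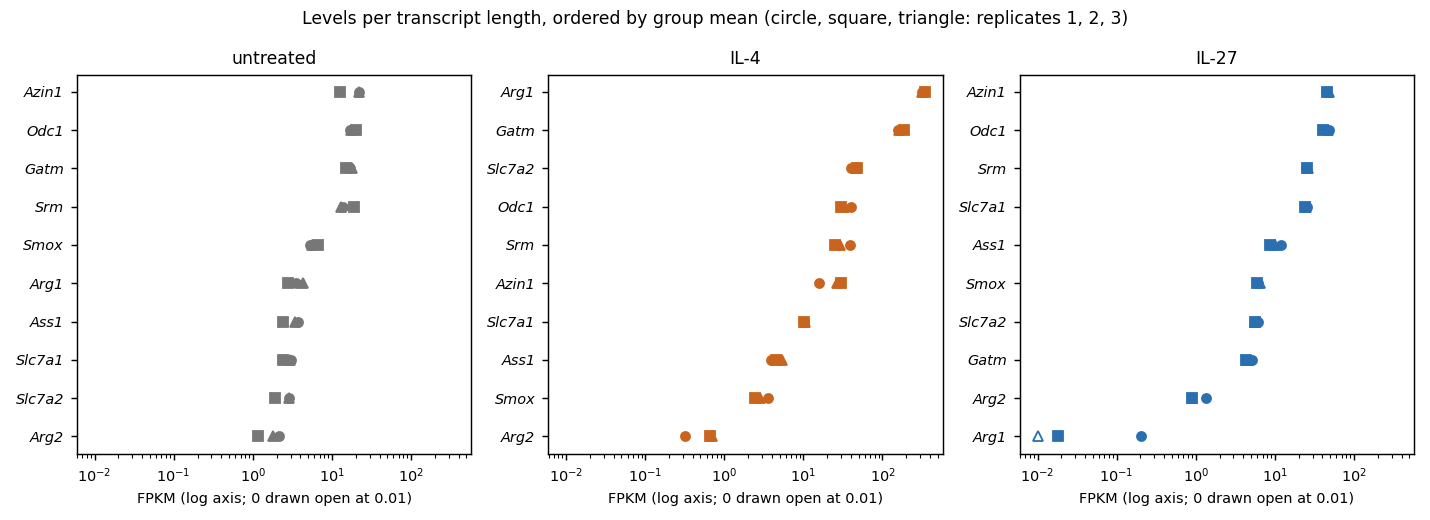
FPKM of the 10 genes in each library on a log axis, ordered within each group by the group mean, with open symbols at 0.01 for 0. Arg1 moves from sixth place in untreated cells to the top with IL-4 and to the bottom with IL-27.

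The order of levels per length differed between the groups. In untreated libraries Azin1 (18.9 ± 5.32 FPKM, SD, n = 3), Odc1 (18.1 ± 1.80), Gatm (16.5 ± 1.39) and Srm (15.2 ± 3.14) formed an upper set in which each overlapped the next. Smox followed at 5.84 ± 0.722, apart from its neighbours on either side. Arg1 (3.56 ± 0.738), Ass1, Slc7a1, Slc7a2 and Arg2 (1.69 ± 0.496) formed a lower set, again with overlapping neighbours. With IL-4, Arg1 led at 327 ± 15.1 FPKM, 189th of 16200 genes by mean FPKM, followed by Gatm at 168 ± 15.6 (356th) and Slc7a2 at 44.8 ± 3.93, none of them overlapping the next. Odc1, Srm and Azin1 came next and overlapped, from 34.0 ± 4.92 down to 24.1 ± 7.46. With IL-27, Azin1 (45.9 ± 2.03) and Odc1 (45.3 ± 3.90) led together, and Srm (25.5 ± 1.02) and Slc7a1 (25.0 ± 0.781) followed together. Ass1 at 10.3 ± 1.71 came next, apart from its neighbours. Arg1 was last, at 0.201, 0.0182 and 0 FPKM.

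The pair of libraries that stood apart touched these genes unequally. Against the mean of the other 2 libraries of its group, untreated replicate 2 was higher for Srm by 0.66, Smox by 0.47 and Odc1 by 0.41 (log2), and IL-4 replicate 1 by 0.68, 0.59 and 0.49. Azin1 was lower there by -0.61 and -0.70, and Arg2 by -0.60 and -0.95. Gatm differed by -0.03 and 0.00145, and Slc7a1 by -0.13 and 0.13. By G and C content of the longest annotated transcript (older GENCODE release M21), Srm ranked at the 95.5th percentile of 12330 tested genes, Smox at the 74.5th, Odc1 at the 63.2nd, Arg2 at the 31.0th and Azin1 at the 4.22nd. The order did not hold for every gene: Ass1, at the 75.9th percentile, was lower in both libraries, by -0.37 and -0.17, and Gatm stood at the 16.8th. Slc7a1 was at the 58.1st percentile, Arg1 at the 39.1st and Slc7a2 at the 20.2nd. The part of base composition in these deviations was not tested. Without both libraries, 46.4% of all tested genes were called with IL-4, 49.5% with IL-27 and 58.3% between the treated groups. In that fit the calls of Slc7a1, Slc7a2, Arg1, Gatm, Odc1 and Smox in the comparisons where they had passed were all kept. The Arg2 call between the treated groups was lost in it (edgeR adjusted p = 0.106).

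**Figure D4:**
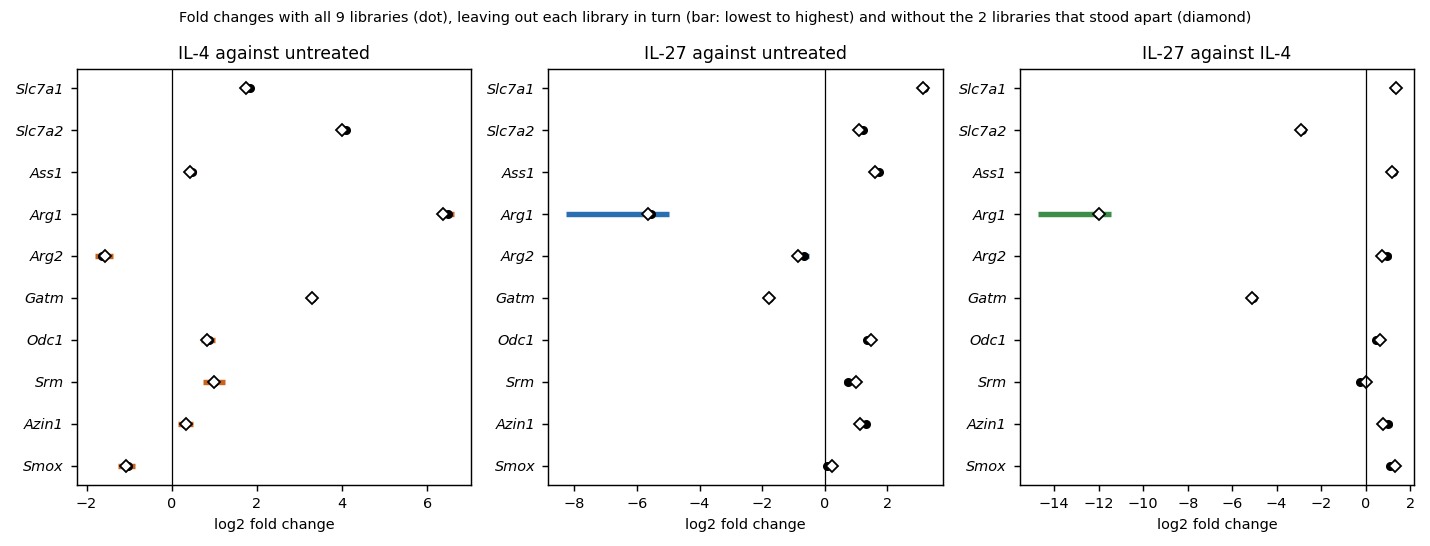
Log2 fold change of each gene with all 9 libraries (dot), the range on leaving out each library in turn (bar) and the value without untreated replicate 2 and IL-4 replicate 1 (diamond). The bar is widest for Arg1 in the IL-27 comparisons, from -8.26 to -4.98 against untreated, and the diamonds of Srm and Smox shift from their dots.

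Outside the 10 genes, 56 others of the pathway lists were in the table and 45 were tested. With IL-4, 7 rose (15.6%), 5 fell (11.1%) and 33 did not pass, near the shares for all genes. With IL-27, 10 rose (22.2%), 7 fell (15.6%) and 28 did not pass, beside 14.0% higher and 15.1% lower of all tested genes. Between the treated groups 7 were higher with IL-27 (15.6%), 8 lower (17.8%) and 30 did not pass, beside 18.8% and 21.0% of all tested genes. Median log2 fold changes were 0.03, 0.03 and -0.08. Without the pair of libraries that stood apart, 22 passed with IL-4 (48.9%), 25 with IL-27 (55.6%) and 26 between the treated groups (57.8%). All tested genes passed at 46.4%, 49.5% and 58.3% in the same fit. Without IL-27 replicate 1 or IL-27 replicate 3 the count with IL-27 was 11 (24.4%), beside 20.3% and 20.4% of all tested genes.

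Among transport genes beside Slc7a1 and Slc7a2, 0 of 6 tested rose and 1 fell with IL-4, and 1 rose and 0 fell with IL-27. Slc3a2, the heavy chain that pairs with several amino acid transporters, rose from 427 ± 62.1 to 931 ± 20.4 CPM with IL-27 (edgeR adjusted p = 0.000202). Slc7a7, which exports arginine with that chain, fell from 27.04 ± 2.53 to 19.2 ± 0.615 CPM with IL-4 (edgeR adjusted p = 0.00543).

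For nitric oxide, 5 of 9 listed genes were tested, with 0 higher and 1 lower under IL-4 and 2 higher and 2 lower under IL-27. Gch1, which opens synthesis of the nitric oxide synthase cofactor tetrahydrobiopterin, went from 24.8 ± 1.54 CPM down to 16.7 ± 0.894 with IL-4 (edgeR adjusted p = 0.00194) and up to 38.2 ± 2.03 with IL-27 (edgeR adjusted p = 9e-04). Ddah1, which degrades methylated arginines that inhibit nitric oxide synthase, rose from 1.67 ± 0.629 to 3.69 ± 0.699 CPM with IL-27 (edgeR adjusted p = 0.0168). The 2 genes of this list that fell with IL-27, chosen here after their values were seen, share these roles. Ddah2, which also degrades methylated arginines, fell from 4.32 ± 0.957 to 2.41 ± 0.0611 CPM (edgeR adjusted p = 0.0189). Spr, which completes tetrahydrobiopterin synthesis, fell from 32.7 ± 6.84 to 19.6 ± 1.82 CPM (edgeR adjusted p = 0.0256). Nos2, the inducible synthase, did not pass the filter, with 4 counts over the untreated and 13 over the IL-27 libraries. Their ratio was 3.08, with an exact 95% counting interval of 0.951 to 13.0.

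**Figure D5:**
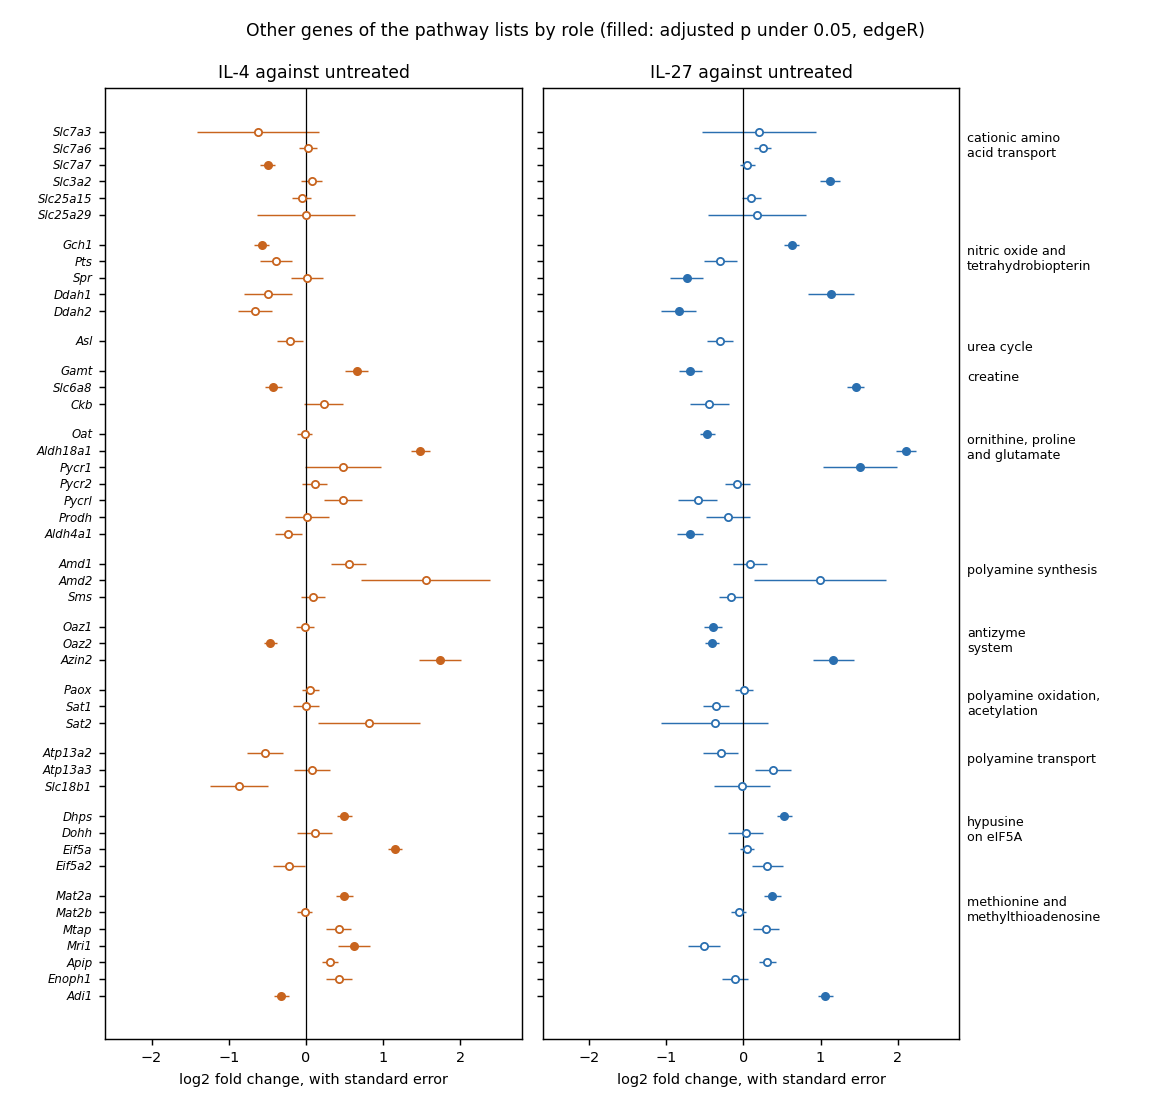
Log2 fold change against untreated, with its standard error, for the 45 other tested genes by role, with IL-4 on the left and IL-27 on the right and filled symbols where the edgeR adjusted p was under 0.05. Gamt, Slc6a8, Gch1 and Adi1 are called in opposite directions in the panels, and Aldh18a1 is called higher in both.

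From ornithine to proline and glutamate, 1 of 7 tested genes rose and 0 fell with IL-4, and 2 rose and 2 fell with IL-27. Aldh18a1, which makes the shared precursor of proline and ornithine from glutamate, rose from 10.8 ± 0.729 to 30.1 ± 4.76 CPM with IL-4 (edgeR adjusted p = 3.2e-05) and to 46.5 ± 2.61 CPM with IL-27 (edgeR adjusted p = 3.02e-06). Oat, which turns ornithine toward proline and glutamate, fell from 102 ± 6.505 to 73.6 ± 2.21 CPM with IL-27 (edgeR adjusted p = 0.00486).

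In polyamine synthesis beside Odc1 and Srm, none of Amd1, Amd2 and Sms passed in any comparison. Amd1, which supplies the aminopropyl donor and has the near-identical copy Amd2, stood at 38.9 ± 10.5, 57.1 ± 14.8 and 41.4 ± 0.426 CPM (untreated, IL-4, IL-27). In the antizyme system, Oaz2 fell from 47.3 ± 1.14 to 34.3 ± 1.66 CPM with IL-4 (edgeR adjusted p = 0.0036) and to 35.7 ± 1.95 CPM with IL-27 (edgeR adjusted p = 0.00637). Oaz1, the antizyme gene with the highest FPKM of the 3, fell from 317 ± 33.2 to 242 ± 6.45 CPM with IL-27 (edgeR adjusted p = 0.0317). Azin2, the second antizyme inhibitor gene, rose from 2.84 ± 0.766 to 9.51 ± 2.83 CPM with IL-4 (edgeR adjusted p = 0.00121) and to 6.37 ± 1.34 CPM with IL-27 (edgeR adjusted p = 0.00941).

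Polyamine oxidation and transport gave no calls beside Smox: 3 genes of each list were tested, and none passed in any of the 3 comparisons. Sat1, which acetylates spermidine and spermine, stood at 353 ± 64.6, 353 ± 75.0 and 275 ± 13.4 CPM. Eif5a, whose protein carries hypusine made from spermidine, rose from 367 ± 29.7 to 816 ± 70.6 CPM with IL-4 (edgeR adjusted p = 2.23e-05) and stood at 379 ± 6.03 CPM with IL-27 (edgeR adjusted p = 0.748). Dhps, which begins hypusine synthesis, rose from 18.1 ± 0.952 CPM to 25.6 ± 1.56 with IL-4 and 26.2 ± 0.879 with IL-27 (edgeR adjusted p = 0.00393 and 0.0023). Of these 4 hypusine genes, 2 rose with IL-4 and 1 with IL-27.

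Salvage of methylthioadenosine, the by-product of polyamine synthesis, and its methionine supply had 2 genes higher and 1 lower of 7 with IL-4, and 2 higher and 0 lower with IL-27. Adi1, a dioxygenase of the salvage route, fell from 31.5 ± 1.62 to 25.2 ± 2.34 CPM with IL-4 (edgeR adjusted p = 0.0367) and rose to 65.7 ± 2.21 CPM with IL-27 (edgeR adjusted p = 3.54e-05). Mat2a, which makes S-adenosylmethionine, rose from 121 ± 13.1 CPM to 171 ± 19.3 with IL-4 and 156 ± 2.33 with IL-27 (edgeR adjusted p = 0.00788 and 0.0270). Mri1, also of the salvage route, was 2.19-fold lower with IL-27 than with IL-4 (edgeR adjusted p = 0.00169).

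By Pearson's r of log2 CPM over the 9 libraries, the genes outside the 10 most like Arg1 were Chil3 (r = 0.998), E2f7 (0.997), Lig1 (0.995), Rnase6 (0.994) and Sdc4 (0.994), among genes with a mean of at least 5 CPM. Chil3, a secreted chitinase-like protein, stood at 25.0, 2210 and 1.04 CPM (means untreated, IL-4, IL-27), and Lig1, the replicative DNA ligase, at 26.2, 74.7 and 11.8 CPM. Genes most like Odc1 were Tgm2 (0.996), Csf2rb (0.995), Taf15 (0.988), Hk2 (0.979) and Cars (0.978). Tgm2, tissue transglutaminase, stood at 244, 537 and 855 CPM. These r describe 9 points in 3 separate groups that share libraries and depth, and no test was made.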

How the data were processed

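PolyA RNA was sequenced in 9 libraries. The deposited table holds whole-number counts per gene, and fastp, HISAT2, HTSeq and build GRCm39 are named without versions in the submitters' processing notes. The deposited FPKM values were made by the authors from the same libraries, by a program the sources used here do not name, and served to compare levels between genes. The sources used here give neither strand nor annotation nor the handling of reads shared between genes.

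Counts were fitted in R 4.3.3 with edgeR 4.0.16 (quasi-likelihood test, TMM factors, filterByExpr with a minimum count of 10, 1 term for group, all 9 libraries). Benjamini-Hochberg adjustment ran over 12587 tested genes, with calls at an adjusted p under 0.05. Approximate standard errors are the absolute log2 fold change divided by sqrt(F). Levels are TMM-normalised CPM, and marker sums and shares of the IL-4 level are unscaled CPM. Total counts of 34577188 to 37951827 limit precision for genes of few counts, such as Arg1 with IL-27. The fit was tested on simulated data. Those counts were drawn independently for each library, without the shift shared by untreated replicate 2 and IL-4 replicate 1, so that test does not cover it. Alternatives used DESeq2 1.42.0, limma 3.58.1 (log2 of FPKM plus 0.1 or 1), other scalings and filters, the replicate block and left-out libraries.

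The members, role lists and marker lists were chosen with earlier results of these data known. Named pathway genes are up to 2 called per role and comparison with the smallest adjusted p, and a few others were named after their values were seen. The 5 genes most like Arg1 and Odc1 leave out unnamed gene models. Protein sequences were not used here. Otc, Cps1 and Ckmt2 were not analysed here, and Pycr3 was counted under its older symbol, Pycrl.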

Additional observations from a re-analysis of the deposited data

How the results depend on the processing

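Scaling by RLE or upper quartile, DESeq2, either filter, FPKM with limma and fits of only the 2 groups compared kept the count of called members within 1.5 times of 8 with IL-4, 8 with IL-27 and 9 between the treated groups. Leaving out each library gave 8 to 9, 7 to 8 and 7 to 9. For the other pathway genes it gave 9 to 15 with IL-4, 11 to 19 with IL-27 and 13 to 19 between the treated groups. The share of all tested genes called also moved with the library left out, so these ranges do not describe the listed genes alone. With IL-27 it was 20.3% without IL-27 replicate 1 and 20.4% without IL-27 replicate 3. With all 9 libraries it was 14.0% higher and 15.1% lower. Shares for the other left-out libraries are not given here. Without untreated replicate 2 and IL-4 replicate 1 together, 10, 10 and 8 members and 22, 25 and 26 pathway genes passed, and with a term for these libraries 23, 27 and 26 pathway genes in the 3 comparisons, against 12, 17 and 15. The term called 54.1%, 52.4% and 60.7% of all genes. Over all genes, leaving both out raised the calls from 3145 to 5909, from 3670 to 6313 and from 5008 to 7426. The cause was not tested. Signs turned only for differences that did not pass: Srm between the treated groups (log2 0.0233 without IL-4 replicate 1, 0.0174 without both libraries and 0.0219 with the term for them; from -0.392 to 0.0233 on leaving out 1 library) and Smox with IL-27 (-0.0238 without untreated replicate 1, and up to 0.244 without another). The size of the Arg1 fall with IL-27 ranged from -8.26 to -2.08 (log2) over the tested alternatives, the smallest with 1 added to FPKM. Of the 5 genes most like Arg1, 3 were kept at a minimum of 20 CPM.

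Deviations from the group means did not follow the replicate numbers in the titles. Same-numbered untreated and IL-4 libraries correlated at -0.775, -0.797 and 0.666, and each negative value involves 1 of the 2 libraries that stood apart. Same-numbered pairs with an IL-27 library correlated between -0.00551 and 0.081. Of 9 libraries, 1 correlated best with its own number in both other groups. Because those 2 libraries dominate the deviations, this check cannot decide whether a number marks a common animal or day. With the replicate block 8, 7 and 7 members were called, and 2308, 2899 and 4216 of all genes. Srm with IL-27 against untreated (edgeR adjusted p = 0.0603) and Arg2 and Odc1 between the treated groups (0.0966 and 0.0786) did not pass with it. Few counts limit Arg1 with IL-27 and Arg2 in all groups.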
